A study of Mus musculus with 4 samples.

Results

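The PD-1, CTLA-4 and CD28 family was examined in natural killer (NK) cells and T cells taken from mouse tumours. It was chosen by gene symbol as 7 genes out of 54545 named genes in the deposited expression table. The 5 receptors are Pdcd1, Ctla4, Cd28, Icos and Btla, and the 2 ligands, both of PD-1, are Cd274 and Pdcd1lg2. Each symbol matched 1 row, and all 7 passed the filter of a mean of at least 1 over the libraries. The cells were sorted from subcutaneous tumours of CT26, a transplantable colon carcinoma line, in BALB/c mice that received 500000 live tumour cells in 200 uL of saline. There were 2 NK libraries and 2 T libraries. Library 1 of each cell type came from a pool of 4 mice and library 2 from a pool of 6 mice, and each library thus stands for several animals. The mice were of 1 strain and all carried the tumour. No library of blood, spleen or tumour-free tissue was analysed here, so levels cannot be set against cells outside a tumour, and no source used here gives the sort markers, mouse age or tumour size.

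T cells need a second signal beside the antigen receptor. CD28 gives it when it binds CD80 or CD86 on an antigen-presenting cell, and CTLA-4 competes for the same ligands and restrains the response. ICOS is a relative of CD28 that appears after activation and supports helper and regulatory T cells. PD-1 and BTLA carry inhibitory motifs in their tails that recruit tyrosine phosphatases. PD-1 is held on T cells that meet antigen persistently, as in tumours, and is the target of checkpoint antibodies together with its ligand PD-L1 (Cd274). PD-L2 (Pdcd1lg2) is the other PD-1 ligand and is known mainly from dendritic cells and macrophages.

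The genes lie at 4 places in the GRCm38 genome, as given by the GENCODE annotation. Cd28 (ENSMUSG00000026012.2, chromosome 1, 60716800 to 60773359), Ctla4 (ENSMUSG00000026011.13, 60887000 to 60915832) and Icos (ENSMUSG00000026009.14, 60977927 to 61000320) follow each other on the plus strand. Gaps of 113.64 kb and 62.094 kb separate them, with 0 protein-coding genes in between. Pdcd1 (ENSMUSG00000026285.7) lies on the minus strand of the same chromosome at 94038305 to 94052553, and Btla (ENSMUSG00000052013.15) on chromosome 16 at 45224315 to 45257670. Cd274 (ENSMUSG00000016496.7, 29367455 to 29388095) and Pdcd1lg2 (ENSMUSG00000016498.10, 29410919 to 29471161) are neighbours on the plus strand of chromosome 19, 22.823 kb apart. Exons of Cd274 share 511 bases with a gene on the opposite strand, so without a stated strand setting reads there cannot be assigned to one of them. No other member shares exon sequence with another annotated gene.

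The promoters of Pdcd1 and Ctla4, which both had very few NK reads, and of Pdcd1lg2, the member with the higher NK mean, are shown as the 250 bases before the start site. The sequences are from RefSeq (GRCm38.p6), and entries were found for 5 of the 7 members. Those of Btla, which had 0 NK reads, and of Cd274 were searched but are not shown. Capitals mark the core letters bound by NFAT factors, which are switched on by calcium signals from the antigen receptor.
Pdcd1 (chr1:94052554-94052803, minus strand): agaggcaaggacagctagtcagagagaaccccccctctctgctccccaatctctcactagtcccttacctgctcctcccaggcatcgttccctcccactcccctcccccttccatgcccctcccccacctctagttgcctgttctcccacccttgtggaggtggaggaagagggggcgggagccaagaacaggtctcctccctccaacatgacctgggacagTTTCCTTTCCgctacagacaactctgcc
Ctla4 (chr1:60908775-60909024, plus strand): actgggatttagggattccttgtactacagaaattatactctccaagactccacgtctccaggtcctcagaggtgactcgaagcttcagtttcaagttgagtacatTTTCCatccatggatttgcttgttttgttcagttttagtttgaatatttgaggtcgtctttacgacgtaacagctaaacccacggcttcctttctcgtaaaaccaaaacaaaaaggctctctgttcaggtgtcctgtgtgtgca
Pdcd1lg2 (chr19:29410669-29410918, plus strand): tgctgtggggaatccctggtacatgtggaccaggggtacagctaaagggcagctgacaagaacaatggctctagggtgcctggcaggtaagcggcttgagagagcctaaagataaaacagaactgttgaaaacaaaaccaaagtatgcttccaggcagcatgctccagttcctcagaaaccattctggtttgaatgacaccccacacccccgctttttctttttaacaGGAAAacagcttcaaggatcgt
The letters GGAAA, searched on both strands, stood in 4 of the 5 member promoters and in 55.6% of 32851 promoter windows of the same length, so a match is common. The Btla window was the member promoter without them. Letters bound by AP-1 (TGANTCA) and by STAT factors (TTCNNNGAA), and the TATA letters TATAAA, were found in 0 of the 5. They stood in 6.75%, 7.02% and 12.4% of all windows. A STAT match can overlap GGAAA, and the others cannot contain it. A match is a description of the letters and not a binding site. The Ctla4 start site of RefSeq lies downstream of the GENCODE gene start, so the window shown lies within the annotated gene.

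Reads assigned to genes numbered 2228226 to 2665928 in the NK libraries and 2067728 to 2893240 in the T libraries. Values are TMM-scaled counts per 1000000 reads, called normalized CPM. A single read was worth 0.407 and 0.355 in the NK libraries and 0.551 and 0.354 in the T libraries. Ribosomal RNA genes took 36.9% to 38.8% of NK reads and 42.7% to 52.4% of T reads. The labels held in the marker genes, with all 6 NK markers higher and all 8 T cell markers lower in the NK libraries. Ncr1, which encodes the NK receptor NKp46, averaged 516 ± 212 normalized CPM in NK cells and 0.71 ± 1.00 in T cells (SD, n = 2 each). Cd3e, a chain of the antigen receptor complex, averaged 4.84 ± 1.67 in NK cells and 287 ± 66.1 in T cells. The T libraries held both Cd4 (207 and 117) and Cd8a (113 and 204), so transcripts of both coreceptors, of helper and of cytotoxic T cells, were present. Of 6 epithelial and fibroblast markers 2 were abundant enough to test, and the collagen gene Col1a2 alone passed the threshold (limma adjusted p = 0.0344). Col1a2 stood at 8.95 and 13.8 in NK pools 1 and 2 and at 0 in both T pools. The other markers did not share this pattern. The collagen gene Col1a1 had 0 NK reads, and Col3a1 had 0 and 3 reads in NK pools 1 and 2. Krt8 and Krt18 had 0 reads in every library. Epcam was lower in the NK libraries (0 and 2.48) than in the T libraries (6.61 and 2.83), short of the threshold (limma adjusted p = 0.529). Whether fibroblasts were present was not tested.

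The comparison asks how the checkpoint and costimulatory genes differ between NK cells and T cells that share a tumour type. PD-1, CTLA-4 and ICOS transcripts were far lower in the NK cells than in the T cells, and CD28 transcripts were lower by a smaller factor. Of the 7 members 4 were lower in NK cells past the threshold (limma on log2(normalized CPM + 1), Benjamini-Hochberg adjusted p under 0.05 over 12106 genes), namely Pdcd1, Ctla4, Cd28 and Icos. The share of all tested genes lower in NK cells at this threshold was 1.09%. None of the 7 was higher in NK cells past it, against 1.22% of all tested genes. In 6 members both NK values lay below both T values, which held for 21.3% of all tested genes, and Pdcd1lg2 was the exception. Both NK values lay above both T values in 0 members and in 22.1% of all tested genes. The median log2 fold change of the 7 members was -2.73, and that of all tested genes was 0.02. In bulk RNA, fewer cells that express a gene and less RNA of it per cell cannot be told apart.

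**Figure D1:**
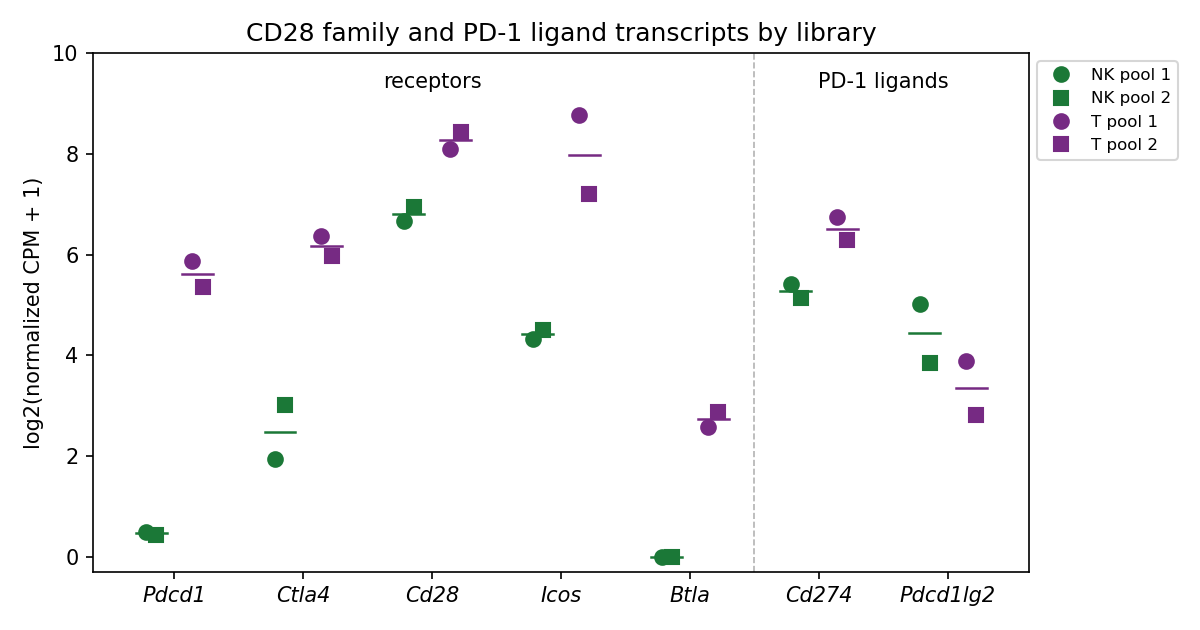
Expression of the 7 members in each library, as log2(normalized CPM + 1). Circles are pool 1 and squares pool 2, green for NK cells and purple for T cells, and lines are group means. The NK points lie below the T points for every member except Pdcd1lg2, whose groups overlap.

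Pdcd1, which encodes PD-1, was near the limit of a single read in NK cells. It stood at 0.41 and 0.35 normalized CPM in NK pools 1 and 2, which is 1 read in each, against 57.3 and 40.0 in T pools 1 and 2, which are 104 and 113 reads. Both T libraries were high and both NK libraries near 0. The T to NK ratio of reads was 123 with an exact binomial 95% counting interval of 33.8 to 1026, and the log2 fold change was -5.15 (SE 0.61, limma adjusted p = 0.0016). Among the 12106 genes tested this was the 19th lowest log2 fold change. The 2 NK reads amounted to 0.78% of the T mean, within the range of the 8 T cell markers, whose NK means were 0.26% to 13.5% of their T means.

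Ctla4, the inhibitory competitor of CD28, stood at 2.85 and 7.09 normalized CPM in NK pools 1 and 2 and at 82.0 and 61.3 in T pools 1 and 2. The NK values rest on 7 and 20 reads. The groups lay far apart, and NK pool 2 was higher than NK pool 1 by a ratio of 2.49 (counting interval 1.01 to 6.97). The T to NK ratio of reads was 13.6 (counting interval 9.16 to 20.9), and the log2 fold change was -3.69 (SE 0.52, limma adjusted p = 0.0051). Within pool 1 the log2 difference was -4.43 and within pool 2 it was -2.94.

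Cd28, the main costimulatory receptor, was the most abundant member per exon length in NK cells. It stood at 100 and 123 normalized CPM in NK pools 1 and 2, against 273 and 344 in T pools 1 and 2. The NK values rest on 247 and 346 reads, so they are well above the floor of detection, and all lay below the T values. The log2 fold change was -1.46 (SE 0.31, limma adjusted p = 0.039), and it was nearly the same within pool 1 (-1.43) and within pool 2 (-1.48). The NK mean was 36.2% of the T mean. That share is larger than for any of the 8 T cell markers, of which Cd3g, at 13.5%, was the highest and Cd8a, at 0.26%, the lowest.

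**Figure D2:**
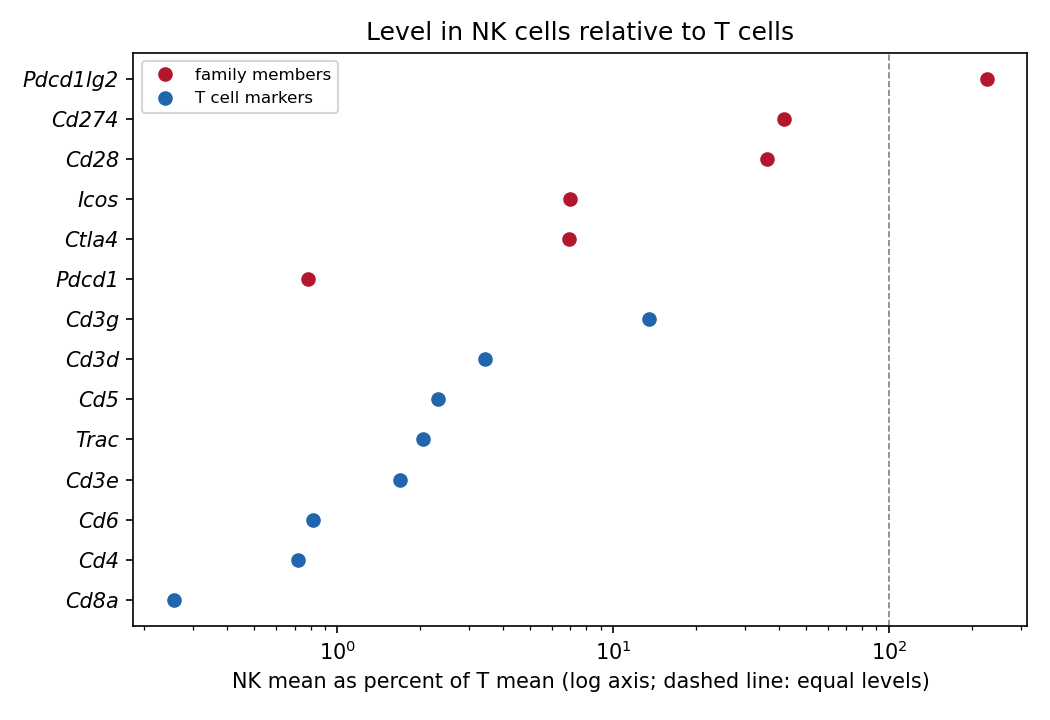
Mean NK level as a percent of the mean T level on a log axis, for the 6 members with NK reads (red) and the 8 T cell markers (blue). Cd28 lies at 36.2% and Cd274 at 41.6%, to the right of every T cell marker, while Pdcd1 lies at 0.78% among them.

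Icos, the inducible costimulator, stood at 19.1 and 21.6 normalized CPM in NK pools 1 and 2. In T cells it stood at 436 in pool 1 and 146 in pool 2. The NK libraries were alike and low, and the T libraries differed from each other by a ratio of 2.99 (counting interval 2.65 to 3.38). The log2 fold change was -3.57 (SE 0.49, limma adjusted p = 0.0043), at -4.44 within pool 1 and -2.70 within pool 2. The size of the Icos difference therefore varied with the pool, and its direction did not.

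Btla, the inhibitory receptor for the TNF receptor family member HVEM, was rare in both cell types. It had 0 reads in both NK libraries, against 9 and 18 reads in T pools 1 and 2, which are 4.96 and 6.38 normalized CPM. A count of 0 allows up to 3 reads in the NK group, or 0.568 normalized CPM. With the counting error of both groups, Btla was at least 7.77-fold lower in NK cells, the low end of the exact binomial 95% counting interval. The T libraries held some reads and the NK libraries none, but the difference missed the threshold (log2 fold change -2.73, SE 0.79, limma adjusted p = 0.13). When limma took the mouse pool as a replicate block the adjusted p was 0.0435, in a fit with 1 residual degree of freedom, but edgeR with the same block did not call Btla (adjusted p = 0.213).

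The 2 PD-1 ligands had log2 fold changes of opposite sign, and neither passed the threshold. Cd274, which encodes PD-L1 and is inducible by interferon gamma in many cells, stood at 41.9 and 34.4 normalized CPM in NK pools 1 and 2 and at 106 and 76.9 in T pools 1 and 2. Both NK values lay below both T values, at 41.6% of the T mean. The log2 fold change was -1.23 (SE 0.37), and it missed the threshold (limma adjusted p = 0.15). With the replicate block limma called Cd274 (adjusted p = 0.0071), in a fit where the share of all tested genes lower in NK cells was 3.98%, against 1.09% without the block. With the same block edgeR did not call it (adjusted p = 0.0967).

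Pdcd1lg2, which encodes PD-L2, was the only member with a higher NK mean. It stood at 31.3 and 13.5 normalized CPM in NK pools 1 and 2 and at 13.8 and 6.02 in T pools 1 and 2. The groups overlapped, since NK pool 2 lay just below T pool 1, and the log2 fold change was 1.09 (SE 0.61, limma adjusted p = 0.52). Within each pool the NK library was the higher one, with log2 differences of 1.13 (pool 1) and 1.04 (pool 2). In each cell type pool 1 was the higher, by a ratio of 2.32 in NK cells (counting interval 1.56 to 3.52) and of 2.29 in T cells (1.19 to 4.51). The summed level of 9 macrophage markers was 829 and 178 in NK pools 1 and 2 and 217 and 23.7 in T pools 1 and 2, and all 9 had higher NK means. By limma 0 of the 9 passed the threshold (8 at an unadjusted p under 0.05, 7 with the replicate block, 0 by edgeR and 1 by DESeq2). Of all 12106 tested genes 1.22% were higher in NK cells by limma, and 1553 genes had an unadjusted p under 0.05 in either direction. With the replicate block 520 of the 12106 were higher. Of the 9 macrophage markers Lyz2, the lysozyme of macrophages and neutrophils, reached 510 and 130 in NK cells and 175 and 16.7 in T cells. Its groups overlapped (limma adjusted p = 0.322). Of 6 dendritic cell markers, Flt3 and Batf3 had 0 reads in all libraries and only Zbtb46 was abundant enough to test, at 4.07 and 7.09 in NK cells and 4.96 and 0.71 in T cells. The part of such cells in the Pdcd1lg2 level was not tested.

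**Figure D3:**
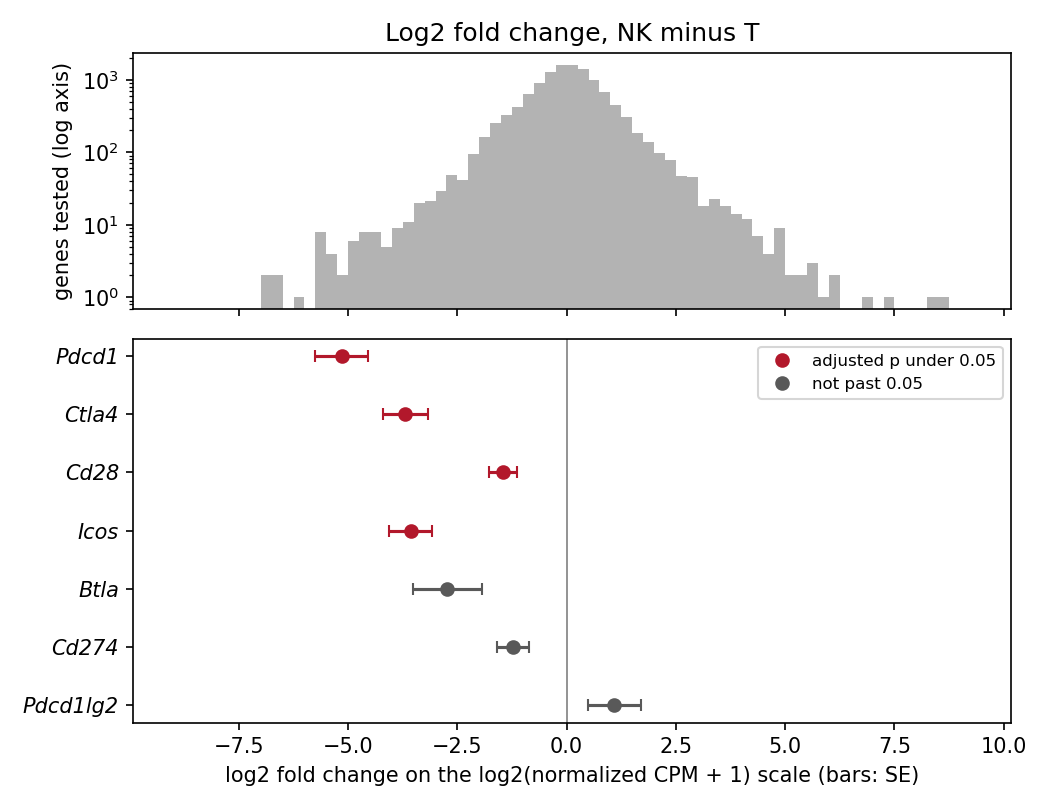
Distribution of the log2 fold change (NK minus T) over the 12106 tested genes with a log count axis (top), and the 7 members with their SE (bottom). Red marks the 4 members past the threshold, from -5.15 for Pdcd1 to -1.46 for Cd28, and grey the 3 that missed it.

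Levels of different genes were compared per kilobase of merged exons. In NK cells the order of the mean level per kilobase was Cd28 (18.2), Pdcd1lg2 (11.4), Cd274 (10.5), Icos (5.94), Ctla4 (2.13), Pdcd1 (0.20) and Btla (0). In T cells it was Icos (84.8), Cd28 (50.4), Ctla4 (30.8), Cd274 (25.3), Pdcd1 (25.2), Pdcd1lg2 (5.05) and Btla (1.67). Some neighbours in these orders were not separable. Pdcd1lg2 changed place with Cd274 between the NK pools, as did Icos with Cd28 and Cd274 with Pdcd1 between the T pools. Pdcd1lg2 per kilobase in NK pool 1 (16.0) also came close to Cd28 there (16.4), and Ctla4 in T pool 2 (26.3) lay below Cd274 and Pdcd1 in T pool 1 (29.3 and 29.7). The ratio of Cd28 to Ctla4 per kilobase was 13.4 and 6.58 in NK pools 1 and 2 and 1.26 and 2.14 in T pools 1 and 2. The NK libraries thus held far more CD28 than CTLA-4 transcript, while the T libraries held the pair at levels closer to each other. The ratio of Cd274 to Pdcd1lg2 per kilobase was 0.72 and 1.38 in the NK libraries and 4.18 and 6.91 in the T libraries.

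The T pools differed in several members, and markers of T cell subsets differed with them. Pool 1 was higher than pool 2 in Pdcd1 by a ratio of 1.43 (counting interval 1.09 to 1.88), in Ctla4 by 1.34 (1.07 to 1.68) and in Cd274 by 1.38 (1.13 to 1.69). Cd28 went the other way, with a ratio of 0.79 (0.71 to 0.88). Btla could not be placed with 27 reads in all (0.78, 0.31 to 1.82). All 6 markers of regulatory T cells, which suppress other T cells and express Ctla4 and Icos, were higher in T pool 1. Foxp3, the transcription factor that defines them, stood at 63.9 in T pool 1 and 12.05 in T pool 2, a ratio of 5.30 (3.59 to 8.02). Ikzf4 had the smallest ratio of the 6 markers, at 1.30 (0.99 to 1.70), an interval that includes a ratio of 1. Of 7 markers of naive and recirculating T cells, 5 were higher in T pool 2. Ccr7, which guides T cells to lymph nodes, stood at 52.9 in T pool 1 and 348 in T pool 2. Each ratio compares a single library with another, with counting error only, and the part of subset makeup in the Icos difference between the pools was not tested. The share of all tested genes higher in either T pool was not computed, so the counts of markers have no background beside them. Over all genes the T libraries also differed by more than sampling noise (chi-square over degrees of freedom, 19.3).

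**Figure D4:**
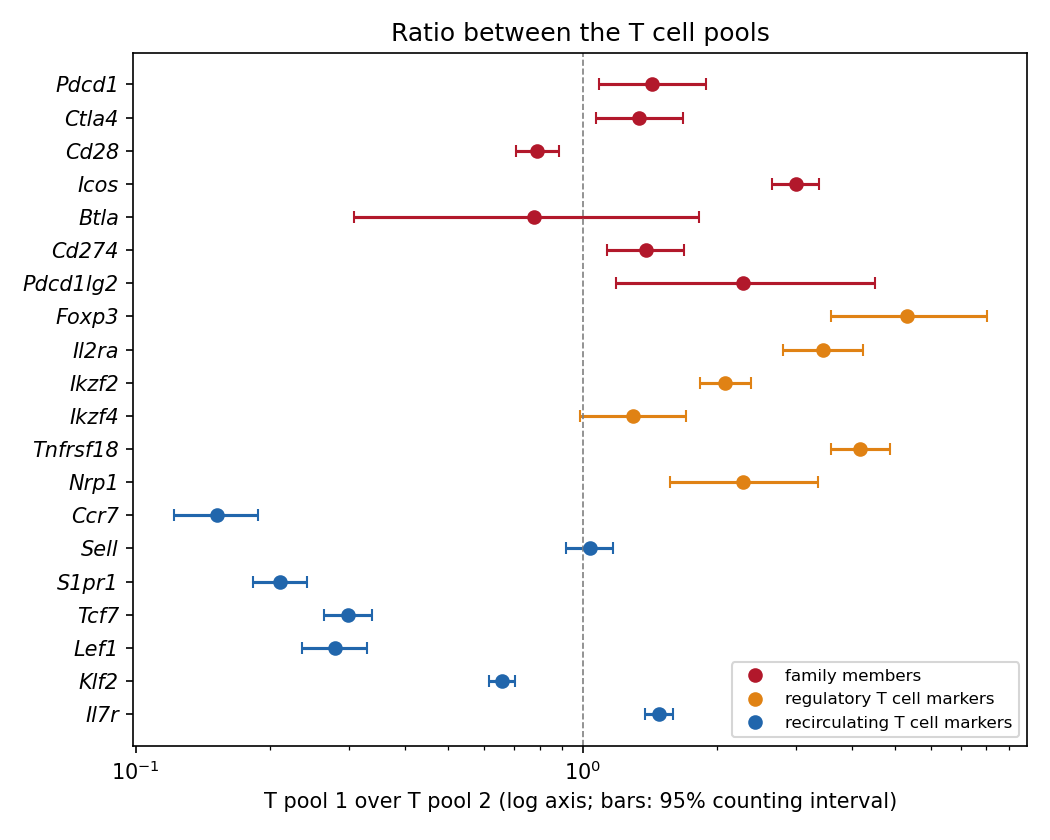
Ratio of T pool 1 to T pool 2 on a log axis for the 7 members (red), 6 regulatory T cell markers (orange) and 7 naive and recirculating T cell markers (blue), with 95% counting intervals. The 6 regulatory T cell markers run from 1.30 (Ikzf4) to 5.30 (Foxp3). Icos (2.99), Pdcd1lg2 (2.29), Pdcd1 (1.43), Cd274 (1.38) and Ctla4 (1.34) lie within that range, and so does the recirculating marker Il7r (1.48). Cd28, at 0.79, lies on the side of the higher pool 2.

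Regulatory T cell markers were also lower in the NK cells: 3 of 6 passed the threshold, against 1.09% of all tested genes, and 0 were higher (median log2 fold change -2.10, against 0.02 for all tested genes). With the replicate block all 6 passed, against 3.98% of all tested genes. Foxp3 had 2 reads in NK cells, at 0 and 0.71 normalized CPM in NK pools 1 and 2 against 63.9 and 12.05 in T pools 1 and 2 (limma adjusted p = 0.0204). Ikzf4 and Ikzf2, which encode the Ikaros relatives Eos and Helios, had log2 fold changes of -4.24 (SE 0.60) and -2.24 (SE 0.42). Of the naive and recirculating markers 4 of 7 were lower in NK cells past the threshold (S1pr1, Ccr7, Il7r and Tcf7), against 1.09% of all tested genes, and 0 were higher, against 1.22%.

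Among other ligands and ligand-related genes, not all of them known to bind a receptor of the family, no difference passed the threshold. Of 8 listed genes 6 were tested, and 0 passed in either direction by limma, edgeR or DESeq2 (1, Vsir, at an unadjusted limma p under 0.05, and 1 with the replicate block), with a median log2 fold change of -0.93. Cd276 and Vtcn1, 2 further B7 relatives, had 0 reads in all 4 libraries. Vsir, which encodes the inhibitory B7 relative VISTA, was the most abundant, at 37.8 and 56.0 in NK pools 1 and 2 and 130 and 107 in T pools 1 and 2 (log2 fold change -1.34, SE 0.36, limma adjusted p = 0.11). Cd86, a ligand of CD28 and CTLA-4, stood at 9.36 and 2.84 in NK cells and 8.26 and 7.80 in T cells. The groups did not overlap for Vsir and overlapped for Cd86.

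Of 19 signalling genes downstream of CD28 and ICOS, 1 was lower in NK cells past the threshold and 0 were higher, with a median log2 fold change of -0.29. The shares of all tested genes were 1.09% lower and 1.22% higher, here and for the lists that follow, and 3.98% lower with the replicate block. With that block 520 of the 12106 tested genes were higher. The block called 3 of the 19 lower, and edgeR and DESeq2 called 2 each. The gene called by limma was Grap2, which encodes the adaptor GADS that couples CD28 and LAT to SLP-76. It stood at 22.8 and 30.8 in NK pools 1 and 2 and at 140 and 240 in T pools 1 and 2 (log2 fold change -2.74, SE 0.39, limma adjusted p = 0.0053). Among 9 phosphatases and other negative regulators 1 was lower past the threshold, against 1.09% of all tested genes, and 0 higher (median -0.13). Dgka, a diacylglycerol kinase that dampens signalling below the antigen receptor, stood at 21.2 and 15.6 in NK cells and 185 and 156 in T cells (log2 fold change -3.15, SE 0.37, limma adjusted p = 0.0016). Ptpn6 and Ptpn11, the tyrosine phosphatases SHP-1 and SHP-2 that bind the tails of PD-1 and BTLA, averaged 74.2 and 47.5 in NK cells and 59.1 and 43.7 in T cells, with neither past the threshold. They were named for that role and not by the rule for named genes.

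Of 11 regulators of mRNA decay, trafficking and protein stability, 1 was lower in NK cells past the threshold, against 1.09% of all tested genes, and 0 higher (3 and 0 with the replicate block; median log2 fold change -0.15). Trat1, an adaptor (TRIM) that promotes the surface transport of CTLA-4, had 0 reads in both NK libraries, against 46.3 and 40.0 normalized CPM in T pools 1 and 2. By the low end of its counting interval it was at least 60.2-fold lower in NK cells (limma adjusted p = 0.0016). Of 15 transcription factors that act on these genes, 2 were lower in NK cells, against 1.09% of all tested genes, and 0 higher (median -0.74). With the replicate block 6 were lower, against 3.98% of all tested genes, and 1 higher. DESeq2 called 4 of the 15 and edgeR 2. Irf4, a factor of antigen receptor strength, had 0 and 3 reads in NK pools 1 and 2 and stood at 13.2 and 29.4 normalized CPM in T pools 1 and 2. Tox, a factor of T cell exhaustion that also serves NK development, stood at 16.7 and 15.2 in NK cells and at 86.5 and 113 in T cells (log2 fold change -2.56, SE 0.39, limma adjusted p = 0.0068).

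The genes most alike in pattern were sought among 6555 named genes with a mean of at least 10, by the root mean square difference of the centred log2 values over the 4 libraries. For Pdcd1 these were Trat1 (0.19), Izumo1r (0.27) and Bcl11b (0.28). For Ctla4 they were Acp5 (0.20), Dpp4 (0.27) and Ikzf4 (0.28), and for Icos Kbtbd11 (0.13), Il1rl1 (0.37) and Slco3a1 (0.41). Cd28 was closest to Stat5b (0.04), Ripor2 (0.05) and Ets1 (0.06). Cd274 was closest to Rev3l (0.03), Smchd1 (0.04) and Eva1b (0.06), and Pdcd1lg2 to Ctnnbip1 (0.09), Mrpl51 (0.12) and Tnfrsf1a (0.12). With 4 libraries in 2 groups such distances describe these libraries only.

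Of the 8 nearest protein-coding neighbours of the chromosome 1 cluster and of the ligand pair, 7 were tested and 0 passed the threshold. Around the Cd28, Ctla4 and Icos cluster the neighbours Abi2, Raph1, Pard3b and Nrp2 had log2 fold changes of 0.03, 0.26, 0.83 and 1.31. Around Cd274 and Pdcd1lg2, Plgrkt, Ric1 and Ermp1 had -0.14, 0.50 and 1.03, and Rln1, which fell below the filter, was not tested. These were chosen by position.

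The calls for Pdcd1, Ctla4 and Icos held in edgeR's quasi-likelihood test on whole reads with all libraries (adjusted p = 0.0013, 0.0059 and 0.0059). The edgeR fits without each library in turn were chosen after seeing the data. There the lone library of a group is assumed to vary like the 2 of the other. Without each library in turn, by limma or edgeR, the log2 fold changes ran from -7.11 to -4.89 for Pdcd1. They ran from -4.65 to -3.15 for Ctla4 and from -4.48 to -2.78 for Icos. In limma without a trend in the spread Pdcd1 kept its call, and Ctla4 (adjusted p = 0.0713), Icos (0.0987) and Cd28 (0.252) lost theirs. In edgeR with all libraries 1.57% of the genes it tested were lower in NK cells. The call for Cd28 (edgeR adjusted p = 0.0402) was lost in edgeR without NK pool 1 (0.354) and without NK pool 2 (0.133), and limma, which then has a single residual degree of freedom, called 0 members and 0 genes whichever library was left out (677 to 1753 genes at an unadjusted p under 0.05).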

How the data were processed

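Total RNA of NK and T cells sorted from CT26 tumours was sequenced in 4 libraries. Tools listed in the submitters' processing notes, without roles, are STAR 2.7.0f, Bowtie2 2.3.4.1, limma and FastQC, with the build GRCm38.p6. No source used here gives the counting tool, strand setting or normalization. The authors deposited a normalized signal with 1 column per library. Within a tolerance of 0.001 reads, 100% of non-zero values were whole multiples of the value of 1 read, and TMM factors computed again on these reads (1.103, 1.058, 0.8782 and 0.9754) equalled the scaling in the file. The values are thus counts per 1000000 of TMM-scaled library size, with no length correction. Rows without a symbol (0.0167% to 0.0197% of reads) were left out, 27 symbols turned into dates were restored, and symbols with several rows were represented by the one of highest mean.

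Genes with a mean of at least 1 were tested with limma 3.58.1 (R 4.3.3) on log2(value + 1), NK minus T, with a trend in the spread and 2 residual degrees of freedom. That scale understates the change of low genes. The test was checked on simulated counts. edgeR 4.0.16 and DESeq2 1.42.0 on recovered reads were alternatives; edgeR called 300 genes. Read ratios have exact 95% binomial intervals (scipy 1.17.1), and these and the floor of 3 reads cover counting error only. Coordinates and exon lengths are from GENCODE M21 (GRCm38). P-values rest on spread between pools of mice. In limma the spread of each gene is drawn toward the trend over all tested genes. Its SE and p-values are therefore not the spread of that gene between the pools alone. The series' design text ties the replicate number to a pool, so the numbers pair the libraries; across 12106 genes the NK and T pool differences correlated at 0.162. Every pair of libraries differed by more than sampling noise (chi-square over degrees of freedom, 10.3 to 32.5). The members and gene lists were chosen with earlier results of these data known. The text names all members, up to 4 genes past the threshold per list (or the 2 most abundant), the 3 genes most alike each member, and the exceptions it states. Of the other marker lists, B cell markers summed to 0 and 0.35 in NK and 0 and 2.83 in T pools 1 and 2, neutrophil markers to 19.9 and 20.9 and to 89.8 and 12.4, and epithelial and fibroblast markers to 8.95 and 17.4 and to 7.16 and 2.83.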

Additional observations from a re-analysis of the deposited data

How the results depend on the processing

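All members kept their direction under every alternative in which they were tested. Btla was tested in 17 of 19, since it fell below the filter with a mean of at least 5 and in edgeR without T pool 2. The 4 member calls (of 280 genes, 148 higher and 132 lower in NK cells) stood with a pseudocount of 0.5 or 5, no filter, a mean of at least 5, scaling outside ribosomal RNA genes, edgeR and DESeq2. With the replicate block limma called 6 members and 1002 genes (520 higher, 482 lower), with 1 residual degree of freedom; edgeR with the block called 4 members and 270 genes. Without a trend in the spread limma called 1 member, Pdcd1, and 38 genes (18 and 20). Without TMM it called 3 members, losing Cd28 (adjusted p = 0.131), and 137 genes higher and 79 lower; the median of all genes then moved to 0.22, and relative to it Cd28 stood at -1.46. DESeq2 called 213 genes lower in NK cells. Without each library in turn limma called 0 members and 0 genes, and edgeR, an alternative chosen after seeing the data, called 3 to 5 members and 327 to 493 genes, with 163 to 261 higher and 164 to 232 lower in NK cells (433, with 216 lower, without NK pool 2; 421, with 231 higher, without T pool 1). Over the limma, edgeR and DESeq2 alternatives with all 4 libraries the adjusted p ran from 3.32e-12 to 0.0269 for Pdcd1. It ran from 1.86e-12 to 0.0713 for Ctla4, from 1.40e-24 to 0.0987 for Icos and from 2.31e-05 to 0.252 for Cd28. For Btla it ran from 0.0435 to 0.213, for Cd274 from 0.0071 to 0.341 and for Pdcd1lg2 from 0.261 to 0.775. Why these settings differ was not tested. Depth limits Pdcd1 and Btla in NK cells, with 2 and 0 reads.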
